A study of Homo sapiens with 18 samples.

Results

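The genes described here encode the proteins of the extracellular matrix and the enzymes that finish them: 47 genes, chosen by name, of the 57820 genes in the deposited count table. They comprise 19 collagen chains, 7 laminin chains, 8 matrix glycoproteins, 5 genes for proteoglycans and nidogen, and 8 enzymes that crosslink or hydroxylate collagen. All 47 names matched 1 row of the table each. The cells were MDA-MB-231, an established line of triple-negative human breast cancer, labelled wild type, and were harvested 72 hours after lipofection. They had received a control siRNA (siCtrl) or either of 2 siRNAs that silence RagC (siRagC1, siRagC2), with 6 libraries per group and 18 in all. RagC is a GTPase that brings mTORC1, the nutrient-sensing kinase complex, to the lysosome, and the study asked which genes respond when mTORC1 is repressed. The labels call the libraries biological replicates but name no separate cultures, so p-values measure only the spread between samples, which may be technical. Silencing by siRNA is transient and partial, only 1 cell line was used, and sequences of the siRNAs were not given in the sources used here.

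Collagens are built from chains that fold in threes. Fibrillar collagens form the tensile fibres of connective tissue, network collagens form sheets such as the collagen IV lattice of basement membranes, and beaded-filament collagens link such sheets to the surrounding fibres. Laminins, each an alpha, a beta and a gamma chain, are the other lattice of the basement membrane, and nidogen, perlecan and agrin bind them to it or to the cell. Before secretion, prolyl hydroxylases (P4HA genes) stabilise the collagen helix and lysyl hydroxylases (PLOD genes) prepare the sites that lysyl oxidases (LOX genes) later crosslink outside the cell. Carcinoma cells make part of this matrix themselves, and fibroblasts usually make most of the fibrillar collagen of a tumour.

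Libraries ranged from 14.8 M to 71.6 M counts. By their codes, replicates 1 and 2 of every group belong to series D1103, and replicates 3, 4, 5 and 6 to series D1221. Levels are given in CPM, counts scaled for library size and composition. The targeted gene, RRAGC, ranged from 60.6 to 67.9 CPM with siCtrl (median 61.5), from 12.3 to 31.9 with siRagC1 (median 24.3) and from 19.3 to 40.8 with siRagC2 (median 26.1). The groups did not overlap, and RRAGC fell by 1.43 ± 0.17 (SE) and 1.20 ± 0.17 on the log2 scale (edgeR, adjusted p = 0.000373 and 0.00135). Of the mesenchymal markers, VIM stood between 3790 and 5382 CPM. ESR1 and PGR were at 0.164 CPM or less, but ERBB2 had 1420 to 7044 counts per library and GATA3 100 to 642. These 4 luminal and HER2 markers summed to 88.3 to 122 CPM (siCtrl), 95.2 to 133 (siRagC1) and 98.3 to 111 (siRagC2). The 5 epithelial markers summed to 864 to 1447, 1003 to 1440 and 1102 to 1377 CPM, with CDH1 at 8 to 114 counts per library. Most markers of matrix-making fibroblasts were near 0. PDGFRA had no count in 15 of 18 libraries, and DCN, THY1 and FAP reached at most 0.361 CPM. LUM had 6 to 39 counts in each of the 18 libraries, and PDGFRB stood between 4.16 and 8.79 CPM. The 6 fibroblast markers summed to between 5.39 and 9.23 CPM with siCtrl, 5.43 and 7.37 with siRagC1, and 4.62 and 8.87 with siRagC2. The 3 matched endothelial markers summed to between 4.31 and 5.51 CPM with siCtrl, 4.70 and 5.92 with siRagC1, and 4.77 and 7.50 with siRagC2, nearly all of it KDR (4.05 to 7.31), while CDH5 did not exceed 0.0518. The 4 leukocyte markers summed to between 1.04 and 1.47, 0.968 and 1.68, and 0.809 and 1.47 CPM, from CD14, PTPRC and CD68, with CD3E at 0.0487 or less. The part of these markers in the results was not tested. Because RNA of whole cultures was sequenced, fewer cells with a transcript and less of it per cell cannot be told apart.

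Replicate 6 was often the lowest library of its group in these genes. Among the 42 matrix genes with enough counts to be tested, replicate 6 was the lowest library of its group for 25 genes with siCtrl, 17 with siRagC1 and 22 with siRagC2. Over all 15307 tested genes, replicate 6 was the lowest for 33.5%, 22.4% and 18.8% of genes in the same groups (a count chosen after seeing the data), against 59.5%, 40.5% and 52.4% of the matrix genes. Replicate 2 was the highest library for 20, 17 and 22 of the 42 matrix genes, and for 25.5%, 19.3% and 16% of all tested genes. The comparisons below were made with all 18 libraries and again without replicate 6 of each group.

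MDA-MB-231 cells expressed most of these genes, at levels spanning more than 3 orders of magnitude per kilobase of exon. With siCtrl, the highest level per length was that of THBS1, thrombospondin 1, a secreted regulator of adhesion, at 172 ± 35.5 CPM per kilobase (mean ± SD, n = 6). AGRN, which encodes the heparan sulfate proteoglycan agrin, followed at 77.9 ± 14.6, and LOXL2 and LAMB3 were both at 72.0, with SDs of 6.98 and 12.99. The levels of these 3 lay within their spread. LAMC1, the gamma chain of many laminins, stood at 66.1 ± 2.06, and LAMB2, LAMA5, LAMB1 and FN1 lay between 46.9 and 51.9, closer to each other than the SD of 9.05 of FN1, the lowest of them.

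In collagens I and V, the levels of partner chains lay far apart. COL1A1, the main chain of collagen I, stood at 3.08 ± 0.633 CPM per kilobase, but its partner COL1A2 was at 0.0568 ± 0.0180. COL5A1 stood at 37.7 per kilobase, with an SD of 10.03, and COL5A2 at 0.0996 ± 0.0113. SPARC, a collagen-binding protein of remodelling tissue, and VCAN, the proteoglycan versican, were near the lower end at 0.213 and 0.0312 per kilobase. The other 5 genes did not pass the filter on low counts. COL3A1, a fibrillar collagen of connective tissue, had 30 counts over all 18 libraries, BGN 14, THBS2 137 and FBN2 212. NID1, which encodes nidogen 1, had 0 counts in every library, which allows up to 0.0419 CPM in the deepest library and 0.202 in the shallowest (3 counts, counting error only).

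**Figure D1:**
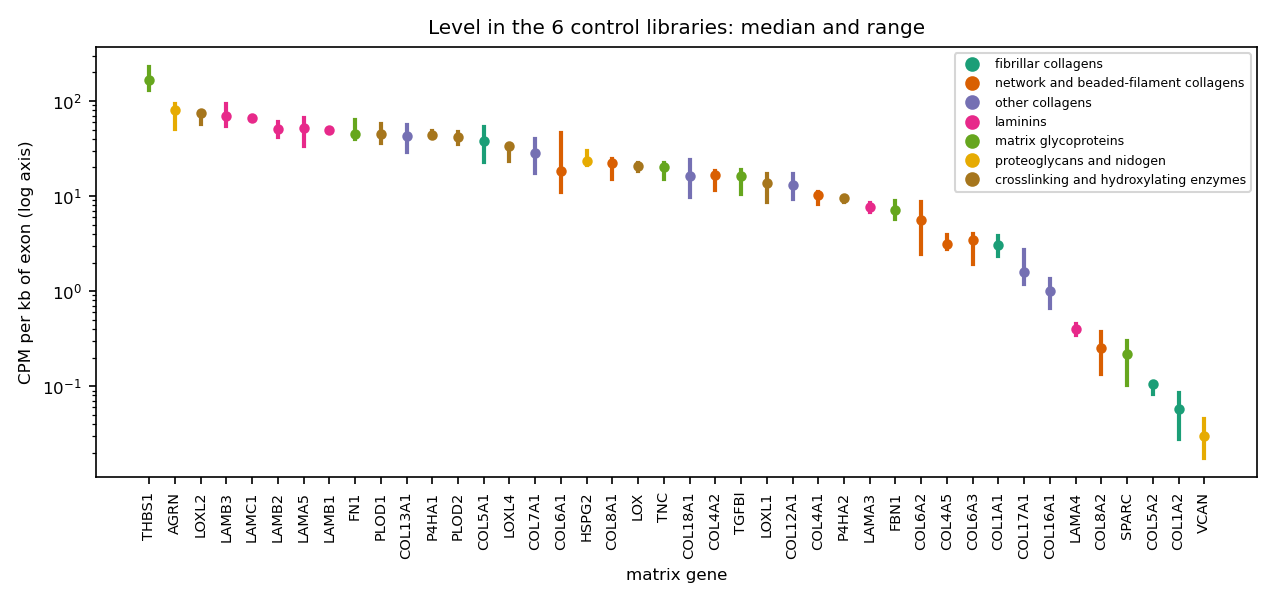
Level of the 42 tested matrix genes in the 6 siCtrl libraries, in CPM per kilobase of exon on a log axis; points are medians, bars run from the lowest to the highest library, and colours give the role. THBS1 lies highest, while COL1A2, COL5A2 and VCAN lie far below COL1A1, COL5A1 and AGRN.

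With siRagC1, 1 of the 42 tested matrix genes was higher and 1 was lower than with siCtrl (edgeR, Benjamini-Hochberg adjusted p under 0.05 over all genes). LAMA3, a laminin alpha chain of epithelial basement membranes, rose 1.25-fold, and COL8A1, a chain of the short-chain network collagen VIII, fell to 0.865 of control. Among all genes, 1.41% were called higher and 0.627% lower. The median log2 fold change was 0.0665 over the matrix genes and 0.00510 over all tested genes, and 30 of 42 matrix genes against 7907 of 15307 genes had a positive sign. The matrix genes' count, 1 in each direction, lies near that background. At an unadjusted p under 0.05, 10 matrix genes were higher and 3 lower, where 9.26% and 7.81% of all genes were.

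With siRagC2, 5 matrix genes were higher and none was lower. They were the collagen chains COL1A1 (1.68-fold) and COL16A1 (1.59-fold), the collagen-binding secreted protein TGFBI (1.45-fold), the crosslinking enzyme LOX (1.28-fold) and the prolyl hydroxylase subunit P4HA2 (1.16-fold). Among all genes, 1.87% were called higher and 1.36% lower. The median log2 fold change was 0.117, against 0.00465 over all tested genes, and 29 of the 42 were positive. At an unadjusted p under 0.05, 17 were higher and 3 lower, where 9.93% and 8.58% of all genes were. DESeq2 called 0 matrix genes lower as well, where 3.31% of all genes were. The count of 0 lower lies near these shares. With the replicate number as a block, 10 matrix genes were higher and 2 lower, where 3.66% and 2.78% of all genes were called. The block dropped COL1A1 (adjusted p = 0.0673) and added COL4A1, COL5A1, COL6A1, COL6A2, LOXL4 and PLOD1 as higher and COL8A1 and TNC as lower. In a fit with no term for the code series, 0 matrix genes passed with either siRNA, where 0.0457% of all genes were called with siRagC1 and 0.124% with siRagC2. Both comparisons use the same 6 control libraries, so their values for a gene are not independent.

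**Figure D2:**
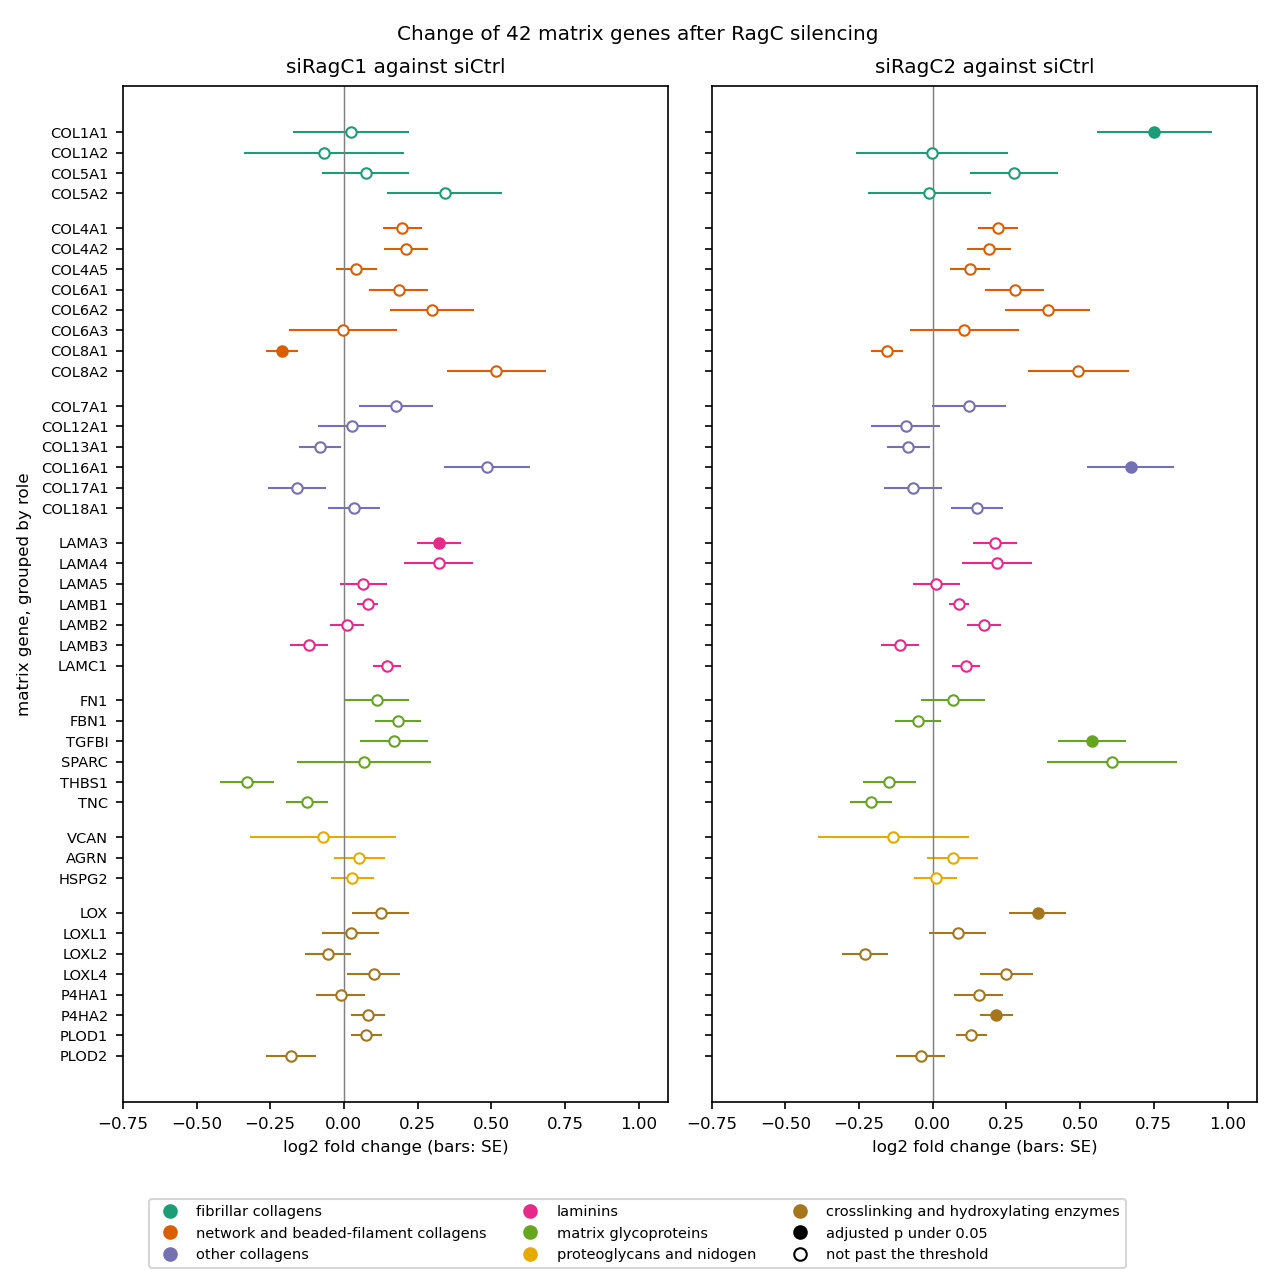
Log2 fold change of each tested matrix gene with siRagC1 (left) and siRagC2 (right) against siCtrl, all 18 libraries, bars showing 1 SE and colours the role; filled points had an adjusted p under 0.05. LAMA3 and COL8A1 are filled on the left, and COL1A1, COL16A1, TGFBI, LOX and P4HA2 on the right.

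Among the fibrillar collagens, 1 of the 4 tested rose with siRagC2, COL1A1 (ENSG00000108821), and 0 passed with siRagC1. Its level ran from 22.9 to 37.4 CPM with siCtrl (median 30.1), from 22.5 to 36.1 with siRagC1 (median 31.7) and from 22.5 to 72.8 with siRagC2 (median 55.7). With siRagC2, replicates 1 to 5 lay at 40.5 CPM or more, above every control, while replicate 6, at 22.5, lay below them all. The log2 fold change was 0.75 ± 0.19 with siRagC2 (adjusted p = 0.0440) and 0.02 ± 0.20 with siRagC1 (adjusted p = 0.970). The siRagC2 change was 0.83 ± 0.16 without replicate 6 (adjusted p = 0.00881) and missed the threshold on leaving out any of 13 of the 18 single libraries (adjusted p up to 0.116). COL5A1, which starts and limits the width of collagen fibrils, ran from 254 to 597 CPM with siCtrl and from 334 to 721 with siRagC2, and its log2 fold change was 0.28 ± 0.15 (adjusted p = 0.346).

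Of the 8 network and beaded-filament collagens, 1 fell with siRagC1 and none passed with siRagC2, where 7 of 8 had a positive sign and COL8A1 a negative one. COL8A1 (ENSG00000144810) ran from 142 to 229 CPM with siCtrl (median 210), 117 to 223 with siRagC1 (median 187) and 124 to 207 with siRagC2 (median 202). The groups overlapped across the code series. In D1103, siCtrl stood at 142 and 169 CPM and siRagC1 at 117 and 130, while in D1221 siCtrl ran from 205 to 229 and siRagC1 from 184 to 223. Within each number, the siRagC1 library was lower in 6 of 6 cases. Such counts by number, here and below, only describe the values. Within the series no set of pairs met the rule given under processing, and no share over all genes was counted. The log2 fold change was -0.21 ± 0.05 with siRagC1 (adjusted p = 0.0475) and -0.16 ± 0.05 with siRagC2 (adjusted p = 0.119). The siRagC1 call was lost on leaving out any of 14 of the 18 single libraries (adjusted p up to 0.148). COL8A2, its partner chain, was at 1.17 ± 0.389 CPM with siCtrl and had log2 fold changes of 0.52 ± 0.17 and 0.49 ± 0.17, which missed the threshold (adjusted p = 0.106 and 0.112).

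COL4A1 and COL4A2 moved by similar amounts. COL4A1 ran from 122 to 162 CPM with siCtrl (median 152), 152 to 189 with siRagC1 (median 169) and 152 to 189 with siRagC2 (median 173). COL4A2 ran from 222 to 351 CPM with siCtrl (median 325), 303 to 403 with siRagC1 (median 356) and 343 to 376 with siRagC2 (median 351). The lowest control of both was replicate 6. Log2 fold changes were 0.20 ± 0.07 and 0.22 ± 0.07 for COL4A1 (adjusted p = 0.122 and 0.0742), and 0.21 ± 0.07 and 0.19 ± 0.07 for COL4A2 (adjusted p = 0.141 and 0.162). The pair is known to be transcribed in opposite directions from 1 shared promoter. In RefSeq (GRCh38.p14) their starts lie 126 bases apart, at chr13:110307158-110307283, and this stretch is shown, plus strand, because it lies between both genes; it holds none of the motifs searched below.
COL4A1 and COL4A2: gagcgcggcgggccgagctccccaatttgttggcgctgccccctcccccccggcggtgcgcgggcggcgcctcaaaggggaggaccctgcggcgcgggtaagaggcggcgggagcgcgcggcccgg

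COL6A1 and COL6A2, chains of the beaded filament collagen VI, gave the widest spread among the controls. COL6A1 stood at 222 and 247 CPM in the 2 D1103 controls and at 104, 94.0, 94.9 and 58.6 in the 4 of D1221, the last being replicate 6. COL6A2 stood at 39.7 and 47.1, and then at 29.7, 30.9, 27.3 and 13.4. For both genes, each RagC library was above the control of its own number in 6 of 6 cases with each siRNA. With all libraries and no block none passed: the log2 fold changes of COL6A1 were 0.19 ± 0.10 and 0.28 ± 0.10 (adjusted p = 0.358 and 0.131), and those of COL6A2 were 0.30 ± 0.14 and 0.39 ± 0.14 (adjusted p = 0.292 and 0.141). With the replicate block both passed with siRagC1 (edgeR, adjusted p = 0.0401 and 0.0217) and with siRagC2 (adjusted p = 0.00431 and 0.00482). COL6A3, the third chain, had -0.00 ± 0.18 and 0.11 ± 0.18.

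Of the other 6 collagens, COL16A1 (ENSG00000084636) rose with siRagC2. It encodes a chain of a collagen that sits on the surface of other fibrils. The level ran from 6.11 to 12.4 CPM with siCtrl (median 9.34), 10.3 to 16.3 with siRagC1 (median 12.7) and 10.3 to 17.5 with siRagC2 (median 15.4). With siRagC2, replicates 1 to 5 lay above every control and replicate 6, the lowest, lay among them. The log2 fold change was 0.67 ± 0.15 with siRagC2 (adjusted p = 0.0176) and 0.49 ± 0.15 with siRagC1 (adjusted p = 0.0885), each higher than the same-numbered control in 6 of 6 cases. The siRagC2 call missed the threshold without siRagC2 replicate 4 (adjusted p = 0.0525) and held on leaving out each of the other 17 libraries. It was lost on leaving out the 3 libraries numbered 1, 2, 4 or 5 (adjusted p up to 0.120) and in each code series fitted alone. COL7A1, the anchoring fibril collagen of skin, and COL12A1, COL13A1, COL17A1 and COL18A1 had log2 fold changes between -0.16 and 0.18 with either siRNA, none past the threshold.

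LAMA3 (ENSG00000053747) was the only one of 7 laminin chains to pass, and the only matrix gene whose siRagC1 and siCtrl libraries did not overlap. Among all tested genes, 0.516% were higher without overlap and 0.314% lower. With siRagC2, 0 matrix genes were free of overlap, where 92 of 15307 tested genes were higher and 83 lower. LAMA3 ran from 99.1 to 124 CPM with siCtrl (median 113), 125 to 161 with siRagC1 (median 137) and 113 to 145 with siRagC2 (median 133). The highest control, at 123.8 CPM, and the lowest siRagC1 library, at 124.6, were close together. The log2 fold change was 0.32 ± 0.07 with siRagC1 (adjusted p = 0.0300) and 0.21 ± 0.07 with siRagC2 (adjusted p = 0.122). The siRagC1 call was lost on leaving out siCtrl replicates 1, 2 or 4 or siRagC1 replicates 2, 3 or 4 (adjusted p up to 0.0942). LAMB3, the beta chain that joins it in the laminin of epithelia, went the other way in sign: 254 to 440 CPM with siCtrl, 281 to 360 with siRagC1 and 283 to 340 with siRagC2, with log2 fold changes of -0.12 ± 0.06 and -0.11 ± 0.06 (adjusted p = 0.361 and 0.383). LAMC1, at 536 to 584 CPM with siCtrl and 581 to 687 with siRagC1, had 0.15 ± 0.05 and 0.11 ± 0.05 (adjusted p = 0.110 and 0.208). LAMA4, LAMA5, LAMB1 and LAMB2 had between 0.01 and 0.32, none past the threshold.

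The RefSeq promoter windows (GRCh38.p14, from 250 bases before a gene's start to 50 after it) held 39 of the 47 genes. They were searched on both strands for CACGTG, the E-box core that TFEB and its relatives bind, for its extended form TCACGTG, which lies within matches of the first, and for TGANTCA, the form bound by AP-1. CACGTG was found for 1 of 39 genes, FBN2, which was not tested for lack of counts, and for 8.77% of all 27305 genes in the table. TCACGTG was found for 0 of 39 and for 4.49% of all genes. TGANTCA was found for LAMA3 and LAMB3, 5.13% of the 39, and for 9.37% of all genes. A match is a description of these letters and shows no binding. The 250 bases before the start are shown for LAMA3, the gene that rose with siRagC1, and for TGFBI and COL16A1, whose calls with siRagC2 held most often when single libraries were left out. Capitals mark TGANTCA, which LAMA3 held beginning 125 and 69 bases before the start used here and the other genes shown did not hold. They lie at chr18:23872770-23873019 (plus strand), chr5:136028738-136028987 (plus strand) and chr1:31704018-31704267 (minus strand), each read 5′ to 3′ on the strand of its gene.
LAMA3: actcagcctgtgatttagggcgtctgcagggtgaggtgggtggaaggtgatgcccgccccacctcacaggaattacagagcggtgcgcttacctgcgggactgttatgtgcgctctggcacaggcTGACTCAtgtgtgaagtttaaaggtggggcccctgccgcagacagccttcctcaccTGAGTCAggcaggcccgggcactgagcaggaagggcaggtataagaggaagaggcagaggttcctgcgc
TGFBI: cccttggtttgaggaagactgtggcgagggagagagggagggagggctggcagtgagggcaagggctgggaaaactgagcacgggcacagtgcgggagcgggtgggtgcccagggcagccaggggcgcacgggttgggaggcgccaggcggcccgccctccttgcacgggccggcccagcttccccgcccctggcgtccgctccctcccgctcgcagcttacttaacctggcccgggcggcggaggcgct
COL16A1: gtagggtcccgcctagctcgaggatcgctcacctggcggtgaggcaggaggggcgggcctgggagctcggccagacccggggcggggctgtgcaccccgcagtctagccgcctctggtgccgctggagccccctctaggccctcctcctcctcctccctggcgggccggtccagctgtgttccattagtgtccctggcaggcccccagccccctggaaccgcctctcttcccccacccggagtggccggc

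Of the 6 tested glycoproteins, TGFBI (ENSG00000120708) rose with siRagC2. Its product, induced by TGF-beta, links collagens to integrins. The level ran from 83.0 to 146 CPM with siCtrl (median 126), 120 to 154 with siRagC1 (median 139) and 128 to 231 with siRagC2 (median 179). With siRagC2, replicates 1 to 5 lay at 170 CPM or more, above every control, and replicate 6 lay among the controls at 128. The log2 fold change was 0.54 ± 0.11 with siRagC2 (adjusted p = 0.0152), higher than the same-numbered control in 6 of 6 cases, and 0.17 ± 0.11 with siRagC1 (adjusted p = 0.475). The siRagC2 call held on leaving out each of the 18 libraries in turn (adjusted p up to 0.0481). It was lost on leaving out the 3 libraries numbered 1, 2 or 5 (adjusted p up to 0.0849) and in each code series fitted alone.

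THBS1 ran from 1195 to 2113 CPM with siCtrl (median 1527), 873 to 1814 with siRagC1 (median 1250) and 1166 to 1698 with siRagC2 (median 1463). It was below the same-numbered control in 6 of 6 cases with each siRNA, but missed the threshold (log2 fold changes -0.33 ± 0.09 and -0.15 ± 0.09, adjusted p = 0.0657 and 0.426). Replicate 6 was the highest library of siCtrl and of siRagC1. TNC, tenascin C, an adhesion-modulating protein of wounds and tumours, was also lower in sign in 6 of 6 with each siRNA, at -0.12 ± 0.07 and -0.21 ± 0.07 (adjusted p = 0.387 and 0.102). FN1, fibronectin, the fibril on which other matrix assembles, ran from 688 to 1107 CPM with siCtrl and had 0.11 ± 0.11 and 0.07 ± 0.11. FBN1, fibrillin 1, had 0.18 ± 0.08 and -0.05 ± 0.08, and SPARC, at 0.501 to 1.45 CPM with siCtrl, had 0.07 ± 0.23 and 0.61 ± 0.22 (adjusted p = 0.918 and 0.130).

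None of the 3 tested proteoglycans passed. AGRN was the most abundant, between 540 and 1007 CPM with siCtrl (median 864), 735 and 992 with siRagC1 (median 886) and 784 and 957 with siRagC2 (median 872). Its lowest control, 540, was replicate 6, and the next lay at 845. The log2 fold changes were 0.05 ± 0.09 and 0.07 ± 0.09, and -0.01 ± 0.04 and -0.04 ± 0.04 without replicate 6. HSPG2, the basement membrane proteoglycan perlecan, had 0.03 ± 0.07 and 0.01 ± 0.07.

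Of the 8 enzymes, LOX and P4HA2 rose with siRagC2 and none passed with siRagC1. LOX (ENSG00000113083), lysyl oxidase, ran from 102 to 124 CPM with siCtrl (median 115), 111 to 139 with siRagC1 (median 124) and 107 to 175 with siRagC2 (median 150). P4HA2 (ENSG00000072682), a catalytic subunit of prolyl hydroxylase, ran from 74.2 to 84.6 CPM (median 81.3), 81.3 to 87.3 (median 86.4) and 79.9 to 105 (median 94.9). In both genes, replicate 6 was the lowest siRagC2 library and lay among the controls, as did replicate 5 of P4HA2. Log2 fold changes with siRagC2 were 0.36 ± 0.10 for LOX (adjusted p = 0.0456) and 0.22 ± 0.06 for P4HA2 (adjusted p = 0.0409), each above the same-numbered control in 6 of 6 cases. With siRagC1 they were 0.12 ± 0.10 and 0.08 ± 0.06 (adjusted p = 0.542 and 0.492). The siRagC2 calls were lost on leaving out any of 10 of the 18 single libraries for LOX and 9 for P4HA2 (adjusted p up to 0.130 and 0.131).

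The remaining enzymes missed the threshold. LOXL2 had -0.05 ± 0.08 and -0.23 ± 0.08 (adjusted p = 0.777 and 0.111), opposite in sign to LOX, and LOXL4 had 0.10 ± 0.09 and 0.25 ± 0.09 (adjusted p = 0.612 and 0.131). P4HA1, another catalytic subunit of prolyl hydroxylase, had -0.01 ± 0.08 and 0.16 ± 0.08, PLOD1 0.08 ± 0.05 and 0.13 ± 0.05, PLOD2 -0.18 ± 0.08 and -0.04 ± 0.08, and LOXL1 0.02 ± 0.10 and 0.08 ± 0.10. Reads of an overlapping gene could add to some of these counts, since no strand setting was given in the sources used here. COL16A1, LOX and P4HA2 each overlap exons of a gene on the other strand (AC114488.2, SRFBP1 and P4HA2-AS1, in GENCODE 29), as do 18 of the 47 in all, while COL1A1, COL8A1, LAMA3 and TGFBI overlap none. On the same strand, 7 of the 47 overlap exons of another gene, among them LOXL2 (ENTPD4), AGRN (AL645608.5) and LAMB3 (MIR4260).

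**Figure D3:**
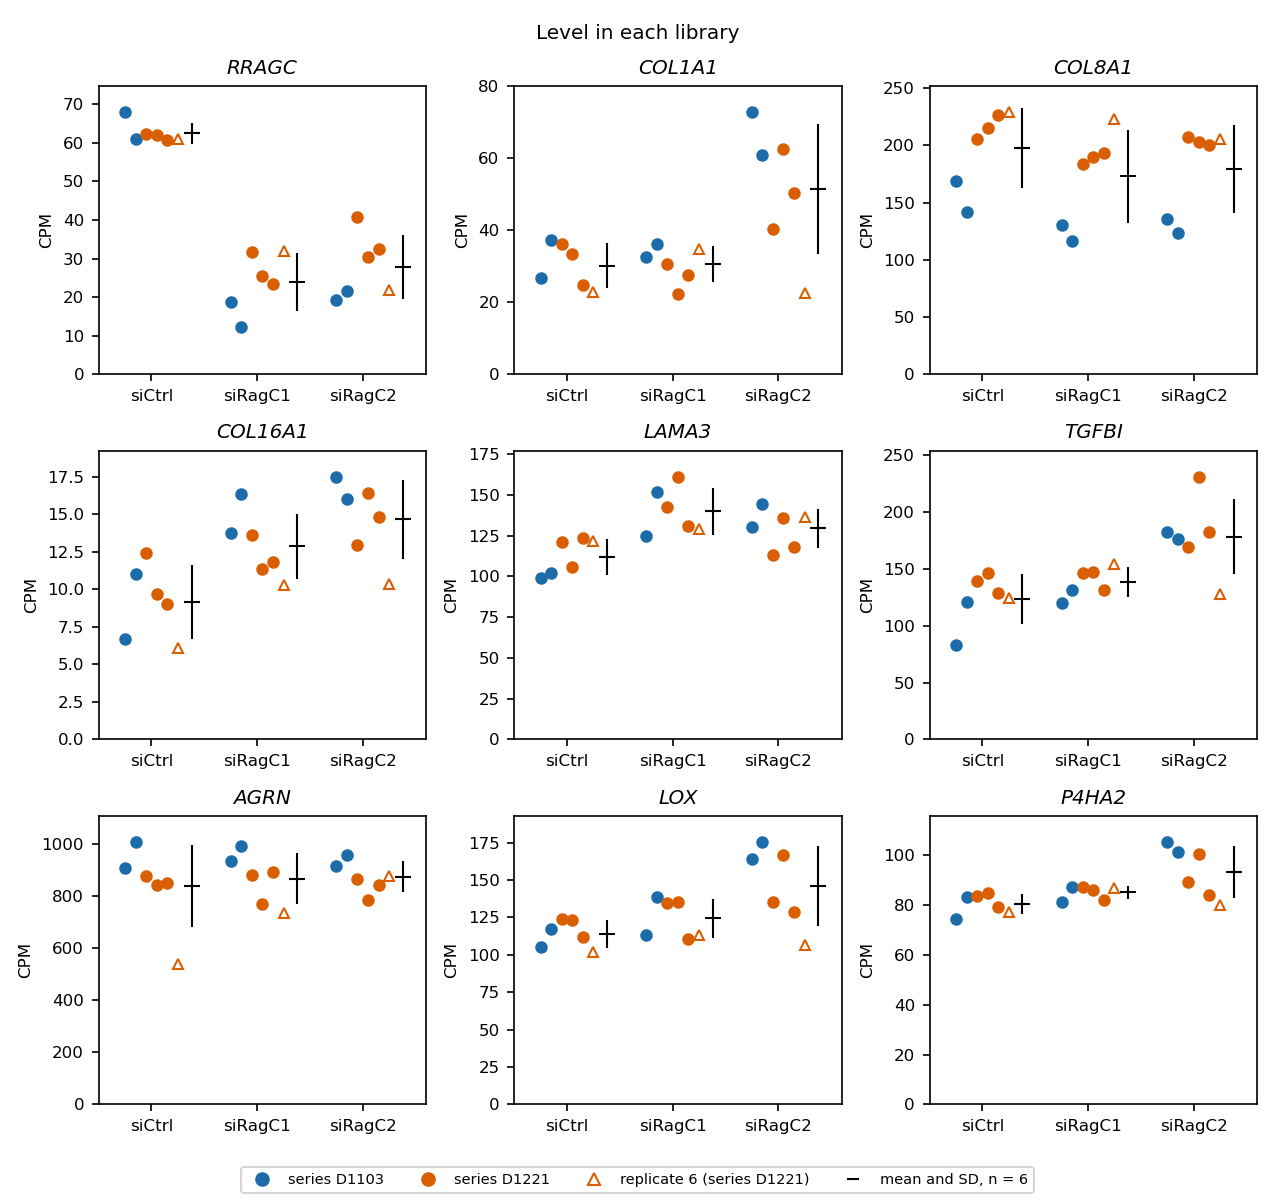
Level of RRAGC and of 8 matrix genes in each of the 18 libraries, in CPM from 0, with group means and SD (n = 6) beside the points; colours give the code series and open triangles mark replicate 6. With siRagC2, replicate 6 lies lowest for COL1A1, COL16A1, TGFBI, LOX and P4HA2, and with siCtrl it lies lowest for AGRN.

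Compared with each other, the 2 siRNAs gave no difference past the threshold in any matrix gene, and 0.00% of all tested genes were called (edgeR). At an unadjusted p under 0.05, 2 matrix genes were higher with siRagC1 and 6 lower, where 4.15% and 3.61% of all genes were. DESeq2 called 0 matrix genes, where 0.163% of all genes were called, and the fit with the replicate block called 0 (0.00%). COL1A1 was lower with siRagC1 than with siRagC2 by 0.73 ± 0.19 on the log2 scale (adjusted p = 0.354) and TGFBI by 0.37 ± 0.11 (adjusted p = 0.399). With all 18 libraries, the siRNAs were thus not shown to differ in either gene.

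Without replicate 6, with 5 libraries per group, the counts of calls grew. With siRagC1, 5 matrix genes were higher and 3 lower of 43 tested, where 4.15% and 3.46% of all genes were called. With siRagC2, 8 were higher and 3 lower, where 3.48% and 3.17% of all genes were called. All 7 calls made with 18 libraries were made again. Between the siRNAs, 1 matrix gene was higher with siRagC1 and 4 lower, where 1.87% and 1.48% of all genes were called. The rise in calls was common to the whole table, from 216 to 643 higher and from 96 to 535 lower genes with siRagC1.

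Of the genes that joined, 5 were higher. COL6A1 rose with both siRNAs, by 0.15 ± 0.04 and 0.21 ± 0.04 (adjusted p = 0.0371 and 0.00491). COL6A2 did so by 0.25 ± 0.06 and 0.32 ± 0.06 (adjusted p = 0.0175 and 0.00436). COL4A2 rose with siRagC1, by 0.17 ± 0.04 (adjusted p = 0.0132), and COL4A1 with siRagC2, by 0.20 ± 0.06 (adjusted p = 0.0401), while the other chain missed in each comparison (COL4A1 with siRagC1, adjusted p = 0.0712, and COL4A2 with siRagC2, 0.102). LAMC1 rose with siRagC1, by 0.17 ± 0.05 (adjusted p = 0.0345).

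Among the genes lower without replicate 6, THBS1 fell with siRagC1 by 0.36 ± 0.06 (adjusted p = 0.00110), from between 1195 and 1749 CPM to between 873 and 1360. LOXL2 fell with siRagC2 by 0.32 ± 0.05 (adjusted p = 0.000969), from between 420 and 438 CPM to between 302 and 410. COL13A1, a membrane-bound collagen, fell with both, by 0.15 ± 0.04 and 0.19 ± 0.04 (adjusted p = 0.0179 and 0.00312), and LAMB3 fell with siRagC2 by 0.18 ± 0.05 (adjusted p = 0.0490). Between the siRNAs, COL1A1, TGFBI, THBS1 and LAMB2 were lower with siRagC1, by 0.92 ± 0.15, 0.48 ± 0.11, 0.28 ± 0.06 and 0.20 ± 0.05, and LOXL2 was higher by 0.25 ± 0.05 (adjusted p between 0.00797 and 0.0356).

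**Figure D4:**
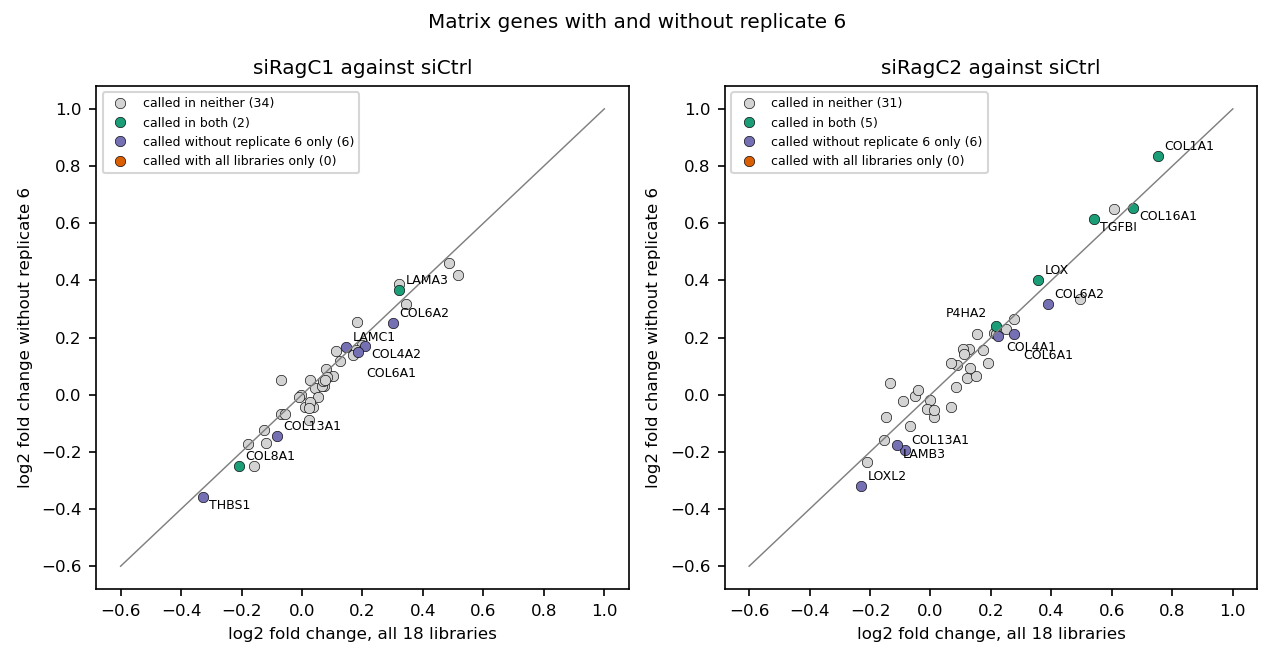
Log2 fold change of each matrix gene with all 18 libraries (x axis) and without replicate 6 of each group (y axis), for siRagC1 (left) and siRagC2 (right), with the line of equal change. Points lie near the line, and 6 further genes in each panel pass the threshold once replicate 6 is left out.

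Many matrix genes differed more between the code series than between siRNAs. In the fit over all libraries, 25 of 42 were called between D1221 and D1103, 7 higher and 18 lower in D1221, where 48.8% of all genes were called. COL6A1 was lower in D1221 by 1.41 ± 0.08 on the log2 scale, COL6A2 by 0.86 ± 0.12 and COL17A1 by 0.72 ± 0.08, while COL8A1 was higher by 0.61 ± 0.05 and THBS1 by 0.47 ± 0.08. What the codes mean was not given in the sources used here, and both series hold libraries of all 3 groups.

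Within the series, siRNA effects on the 5 genes called with siRagC2 had the same sign in both and were larger in D1103. These effects came from an edgeR fit of all 18 libraries with an siRNA effect for each series, not from each series fitted alone. The log2 fold changes in D1103 (2 libraries per group) and in D1221 (4 per group) were 1.05 ± 0.33 and 0.58 ± 0.24 for COL1A1, and 0.90 ± 0.24 and 0.54 ± 0.19 for COL16A1. They were 0.81 ± 0.19 and 0.40 ± 0.13 for TGFBI, 0.61 ± 0.15 and 0.22 ± 0.11 for LOX, and 0.39 ± 0.09 and 0.13 ± 0.06 for P4HA2. With siRagC1 they were 0.46 ± 0.12 and 0.26 ± 0.08 for LAMA3, and -0.33 ± 0.09 and -0.15 ± 0.07 for COL8A1. RRAGC itself fell by 2.04 ± 0.22 and 1.12 ± 0.15 with siRagC1 and by 1.65 ± 0.21 and 0.95 ± 0.15 with siRagC2, and its part in these differences was not tested. In D1103 with siRagC2, the same edgeR fit called TGFBI and P4HA2 higher (adjusted p = 0.0425 and 0.0345). It called LOXL2 lower there (-0.50 ± 0.12, adjusted p = 0.0425). The share of all genes called in that comparison is not given here.

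The difference between series passed for no matrix gene in either comparison, nor for any other gene (0.00% called, edgeR). At an unadjusted p under 0.05, it did so for 0 matrix genes with siRagC1, and with siRagC2 for 1 with a more positive change in D1221 and 4 with a more negative one, where 3.38% and 3.27% of all genes did. DESeq2 called 0 matrix genes, where 0.00% of all genes were called in each comparison. Fitted alone, the D1103 libraries gave 5 matrix genes higher and 1 lower with siRagC1, where 2.12% and 1.30% of all genes were called. With siRagC2 they gave 11 higher and 2 lower, where 3.82% and 3.28% of all genes were called. The D1221 libraries alone gave 0 with either siRNA, where 0.00666% of all genes were called in each comparison. At an unadjusted p under 0.05 they gave 2 higher and 2 lower with siRagC1, where 3.90% and 2.74% of all genes were. With siRagC2 they gave 7 higher and 1 lower at that threshold, where 5.44% and 4.02% of all genes were.

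**Figure D5:**
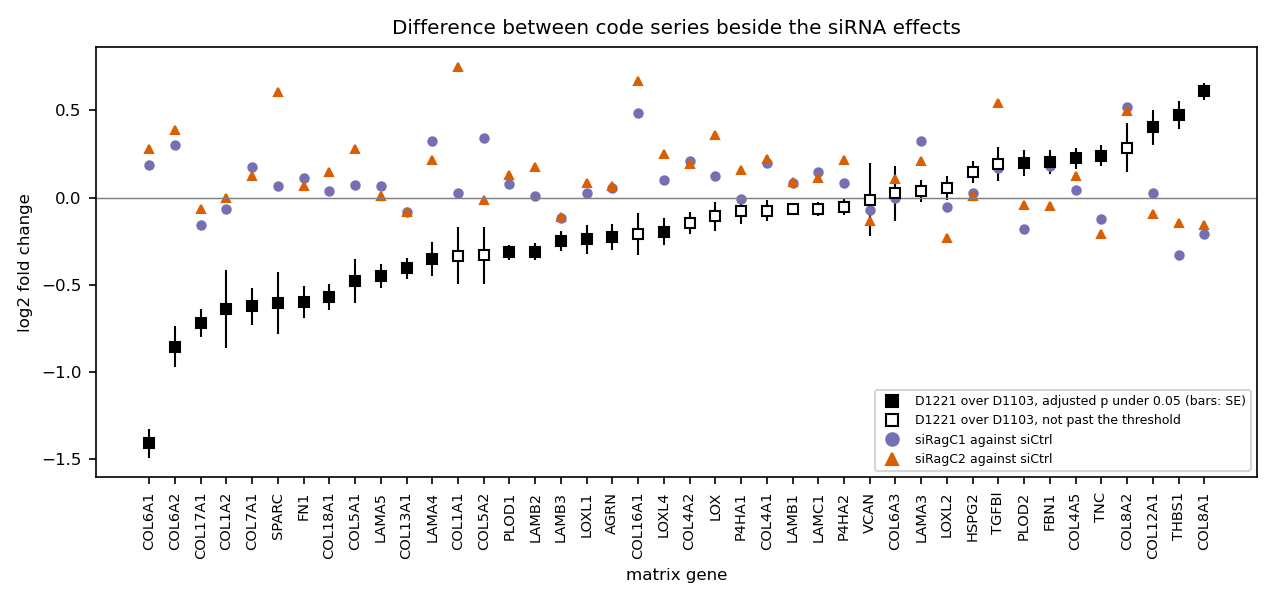
Log2 difference of each matrix gene between series D1221 and D1103 (black squares, bars showing 1 SE, filled where the adjusted p was under 0.05), in order, beside its log2 fold change with siRagC1 (circles) and siRagC2 (triangles). COL6A1 lies lowest at -1.41 and COL8A1 highest at 0.61, while the siRNA effects lie between -0.33 and 0.75.

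Other matrix genes, 128 in 5 lists of collagen chains, basement membrane genes, glycoproteins and proteoglycans, collagen-processing genes, and receptors with TGF-beta signalling, gave 78 with enough counts. Of these, siRagC1 gave 3 higher and 1 lower, where 1.41% and 0.627% of all genes were called, and siRagC2 gave 6 higher and 1 lower, where 1.87% and 1.36% were. The median log2 fold changes were 0.0562 and 0.0680, against 0.00510 and 0.00465 over all tested genes. None of 7 tested collagen chains passed in either comparison.

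LTBP1, which stores latent TGF-beta in the matrix, rose with both siRNAs. It stood between 86.0 and 92.8 CPM with siCtrl, 96.0 and 136 with siRagC1 and 101 and 134 with siRagC2, with no overlap. The change was 0.35 ± 0.06 in each comparison (edgeR, adjusted p = 0.00559 and 0.00454). Of 15307 tested genes, 79 were higher without overlap with siRagC1 and 92 with siRagC2. CCN3, a matricellular protein, also rose with both, by 0.50 ± 0.07 and 0.36 ± 0.07 (adjusted p = 0.000923 and 0.00965), as did NTN4, a laminin-binding netrin of basement membranes, by 0.26 ± 0.06 and 0.31 ± 0.06 (adjusted p = 0.0344 and 0.0120). CCN1, a matricellular protein of the same family as CCN3, fell with siRagC1 by 0.38 ± 0.09 (adjusted p = 0.0316).

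Of 25 tested collagen-processing genes, 2 rose with siRagC2 and 0 with siRagC1 (edgeR), where 1.87% and 1.41% of all genes were called higher. SERPINH1, the collagen chaperone of the endoplasmic reticulum, ran from 208 to 279 CPM with siCtrl and 255 to 328 with siRagC2 (0.19 ± 0.05, adjusted p = 0.0234). COLGALT1, which adds galactose to collagen, ran from 175 to 210 and from 220 to 261 (0.24 ± 0.05, adjusted p = 0.00687). Its ranges did not overlap, and 92 of 15307 tested genes were higher without overlap with siRagC2. With siRagC1 the log2 fold changes of SERPINH1 and COLGALT1 were 0.06 ± 0.05 and 0.09 ± 0.05 (adjusted p = 0.548 and 0.329). MFAP2, a microfibril protein, rose with siRagC2 by 0.30 ± 0.08 (adjusted p = 0.0346), and SDC4, a heparan sulfate receptor for fibronectin, fell by 0.18 ± 0.05 (adjusted p = 0.0303). Without replicate 6, siRagC1 gave 8 higher and 3 lower genes of these lists, where 4.15% and 3.46% of all genes were called, and siRagC2 gave 11 and 2, where 3.48% and 3.17% were.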

How the data were processed

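Raw counts per gene for 18 libraries, 6 per siRNA group, each made from 500 ng of RNA per the labels, were deposited by the authors. The submitters' processing notes name cutadapt (0.6.2), STAR (2.7.6a) and the build GRCh37, also called hg19. How reads were assigned to genes, with which strand setting and annotation, was not given in the sources used here.

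edgeR 4.0.16 in R 4.3.3 fitted the counts of all libraries with terms for the code series and the siRNA group (TMM scaling, robust quasi-likelihood test). Its filterByExpr function kept 15307 genes, and a gene passed where its p, adjusted by Benjamini-Hochberg over these genes, was under 0.05. The SE of an edgeR change was derived from its test, as the size of the log2 fold change over the square root of F. CPM used TMM-scaled totals, which were 14.8 M to 71.6 M counts before scaling. Exon lengths from GENCODE 29 served only for levels per kilobase. The edgeR fit of siRagC1 against siCtrl was also run on simulated counts with known changes, which held no difference between series. The other fits were not tested on simulated data.

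Same-numbered libraries counted as paired where every residual correlation, with group means removed, passed 0.1. These ran from 0.116 to 0.492 between siCtrl and siRagC2, from 0.221 to 0.582 between the RagC siRNAs, and from 0.0765 to 0.610 between siCtrl and siRagC1. With series means also removed they ran from -0.0382 to 0.204, from 0.0439 to 0.263 and from -0.0745 to 0.299, so within the series no set of pairs met this rule. No replicates agreed within counting noise (chi-square per gene 2.89 to 82.2).

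Named by rule were RRAGC, every matrix gene past the threshold against siCtrl, the gene of smallest p in each role, and genes of the further lists that passed. Others were chosen after their values were seen. The 47 genes and the lists were chosen with earlier results of these data known. Alternatives were RLE scaling, no filter, at least 5 CPM in 6 libraries, DESeq2 (1.42.0), limma-voom (3.58.1), the replicate block, no series term, the compared groups alone, each series alone, and each replicate number or single library left out. The series term of the fit was set with those results known. Its own tests per gene and the counts of lowest and highest libraries were added after seeing the data.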

Additional observations from a re-analysis of the deposited data

Results flagged for a closer look

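In 11 of 126 groups of 6 libraries, 1 library lay far from the rest, its gap to the nearest library, as a share of the group's range, exceeding Dixon's critical value for 6 values. Chance alone marks about 1 in 20 groups. Of these, 5 were replicate 6 and low. In siCtrl replicate 6, COL4A2 stood at 222 CPM, AGRN at 540, LOXL2 at 331 and LOXL4 at 85.5, and in siRagC1 replicate 6 LOXL2 stood at 329. LOXL2 thus had the same low level in both, while siRagC2 replicate 6 stood at 388.

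Replicates 1 and 2 accounted for 4 more. COL5A2 was highest at 1.50 CPM in siRagC1 replicate 2, LAMA4 highest at 7.57 and TNC lowest at 129 in siRagC2 replicate 1, and FN1 highest at 1107 in siCtrl replicate 2. The other two were high values of siRagC1 replicate 4, COL8A2 at 2.15 and FBN1 at 162.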

How the results depend on the processing

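Counts of matrix genes past the threshold moved with most choices, as did the share of all genes called, given in brackets for higher and lower genes. With siRagC1, where 1 was higher and 1 lower (1.41% and 0.627%), no filter gave 9 and 3 of 46 (1.92% and 0.652%), DESeq2 3 and 2 (2.88% and 2.16%) and the replicate block 6 and 2 (3.29% and 2.36%). The block called COL4A1, COL4A2, COL6A1, COL6A2, COL16A1 and LAMA3 higher and COL8A1 and THBS1 lower, with adjusted p between 0.00590 and 0.0478. No series term gave 0 and 0 (0.0392% and 0.00653%), the D1103 libraries alone 5 higher (2.12%) and the D1221 libraries alone 0 and 0 (0.00% and 0.00666%), and the filter of 5 CPM (0.898%) and the compared groups alone (0.173%) gave 0 lower. With siRagC2, where 5 were higher and 0 lower (1.87% and 1.36%), no filter gave 14 and 3 of 46 (1.76% and 0.945%), the replicate block 10 and 2 (3.66% and 2.78%), the D1103 libraries alone 11 and 2 (3.82% and 3.28%), the D1221 libraries alone 0 higher (0.00666%), no series term 0 higher (0.0784%) and the compared groups alone 2 higher (1.37%). Between the siRNAs, where the count was 0 (0.00% of all genes in either direction), no filter gave 7 (0.704%) and the D1103 libraries alone 6 (1.43%). For the difference between series with siRagC2, no filter gave 2 (0.196%). The causes were not tested. RLE factors, limma-voom and DESeq2 with siRagC2 stayed within 1.5 times of each count.

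Leaving out a replicate number or a library gave 0 to 5 higher and 0 to 3 lower with siRagC1, 0 to 8 and 0 to 3 with siRagC2, 0 to 5 between the siRNAs, and 0 between series in both comparisons. The highest value of each range above 0 came without replicate 6, and without number 1, 2 or 5 no matrix gene was called in any comparison. Without number 3, 2 were higher with siRagC2, and without number 4, 1. Shares of all genes called are given above only for the fit without replicate 6. The other counts of this paragraph are therefore not set against the whole table. Of the 18 single libraries, leaving out siRagC2 replicate 4 left 1 higher gene with siRagC2, siCtrl replicate 6 left 3, and 8 others left 2: siCtrl 1, 2 and 5, siRagC1 2 and 5, and siRagC2 1, 2 and 3. With siRagC1, leaving out siCtrl 1, 2 or 4 or siRagC1 2, 3 or 4 left 0 higher. The call of LOX was lost without siCtrl 1, 2, 5 or 6, siRagC1 2 or 5, or siRagC2 1, 2, 3 or 4, and that of P4HA2 without the same libraries except siCtrl 6. COL1A1 was lost without these 10 or siRagC1 1 or 3 or siRagC2 5. COL8A1 kept its call only without siCtrl 3 or 6, siRagC1 6 or siRagC2 2.

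The sign reversed for COL1A1 with siRagC1, at -0.0151 with the D1221 libraries alone and between -0.0879 and 0.14 on leaving out replicates (lowest without replicate 6, and below 0 also without replicates 1 or 5, siCtrl 1, 5 or 6, or siRagC1 3 or 6). It reversed for AGRN, between -0.0395 and 0.0881 with siRagC1 and -0.0423 and 0.10 with siRagC2 (below 0 in each without replicate 6 or siCtrl 6), and at -0.0300 with siRagC2 in D1103 alone. Both missed the threshold in these comparisons. Depth limits COL1A2, COL5A2, SPARC and VCAN, which lay near the filter.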
